A study of Mus musculus with 12 samples.

Results

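The factors described here are 10 transcription factors that mark cardiac fibroblasts: *Tcf21*, *Tbx5*, *Tbx20*, *Gata4*, *Gata5*, *Gata6*, *Hand2*, *Meis1*, *Meox1* and *Osr1*. They were found by matching the Ensembl identifiers of the 35727 genes in the table to gene symbols, each symbol matched 1 gene, and all 10 were detected well enough to be tested among 15506 genes. The bulk RNAseq came from cultures of fibroblasts isolated from pooled hearts of newborn mice, enriched for the surface protein THY1 and with a step that removed PECAM1-positive cells, grown in the endothelial medium EGM2. Control and *Sox17*-*Erg* cultures were collected on Day 3, on Day 7 and at Week 4, with 2 libraries in each of the 6 groups and 12 libraries in all. *Sox17* and *Erg*, a SOX and an ETS transcription factor of endothelial cells, were delivered by retroviruses built on the pMX vector, and the columns of the control libraries carry the vector's name, PMX. The *Sox17*-*Erg* cultures were not sorted for reprogrammed cells, so every value is a mean over infected and uninfected cells. In such bulk samples, fewer cells of a type and less RNA per cell cannot be told apart. The sources used here do not say whether replicate libraries came from separate isolations, so p-values measure the spread between these libraries, which may be technical.

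Cardiac fibroblasts carry a set of developmental transcription factors that they share in part with cardiomyocytes and the epicardium, the cell layer around the heart from which most of them descend. TCF21 is a basic helix-loop-helix factor of epicardial progenitors and resident fibroblasts and is widely used to mark and trace cardiac fibroblasts. The T-box factors TBX5 and TBX20, the zinc finger factors GATA4, GATA5 and GATA6 and the basic helix-loop-helix factor HAND2 act together in the core program of heart development. MEIS1 and MEOX1 are homeodomain factors and OSR1 is a zinc finger factor, and MEOX1 is known for its role in activated fibroblasts.

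The libraries held between 19011635 and 41240449 counts, and every member had 16 or more counts in each library. The counts of replicate libraries differed by a chi-square between 29.7 and 76.0 per degree of freedom, far beyond counting error, so no replicates were merged and errors are those between libraries. Levels are given as CPM, the counts scaled to the same effective library size with TMM factors. *Sox17* lay at 0.416 CPM or less in every control library and between 432 and 1036 CPM in the *Sox17*-*Erg* libraries, and *Erg* lay between 0.0728 and 2.27 CPM in control and between 17.1 and 65.2 CPM in *Sox17*-*Erg*. The fibroblast markers were present in both groups, with a summed level of 12 markers between 19979 and 50389 CPM in control and between 20295 and 52935 CPM in *Sox17*-*Erg*. The summed level of 12 endothelial markers lay between 518 and 1886 CPM in control and between 738 and 1531 CPM in *Sox17*-*Erg*, and *Cldn5*, which defines endothelial junctions, was at 0.462 CPM or less throughout. In control, the endothelial sum came largely from *Eng* and *Flt1*, with up to 1501 and 361 CPM.

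Of the 10 members, 2 at Day 3, 3 at Day 7 and 5 at Week 4 were lower in *Sox17*-*Erg* than in control, at an adjusted p under 0.05 in edgeR's quasi-likelihood test with Benjamini-Hochberg adjustment over all 15506 genes. Among all genes, 5.13%, 7.93% and 11.0% were lower at these time points. The lower members were *Tcf21* and *Tbx20* at Day 3, *Gata5*, *Gata6* and *Hand2* at Day 7, and all 5 at Week 4. No member was called higher by edgeR, against 7.19%, 9.48% and 11.9% of all genes, while 1 member at Day 3 and 0 later were higher at an unadjusted p under 0.05, against 16.8%, 16.4% and 17.5% of all genes. At that unadjusted threshold 5, 5 and 6 members were lower, against 13.3%, 15.4% and 18.4% of all genes. The Wald test of DESeq2 called 3, 5 and 5 members lower, against 8.7%, 10.2% and 11.9% of the genes it tested, and 0 higher at each time point, against 9.58%, 10.7% and 12.8%. With the replicate number as a block within each time point, edgeR called 4, 5 and 6 members lower, against 10.4%, 13.3% and 15.5% of all genes, and 0 higher, against 12.7%, 13.8% and 15.5%. The median log2 fold change of the members was -0.39 at Day 3, -0.62 at Day 7 and -0.75 at Week 4, beside 0.010, 0.0058 and -0.014 over all genes tested.

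**Figure D1:**
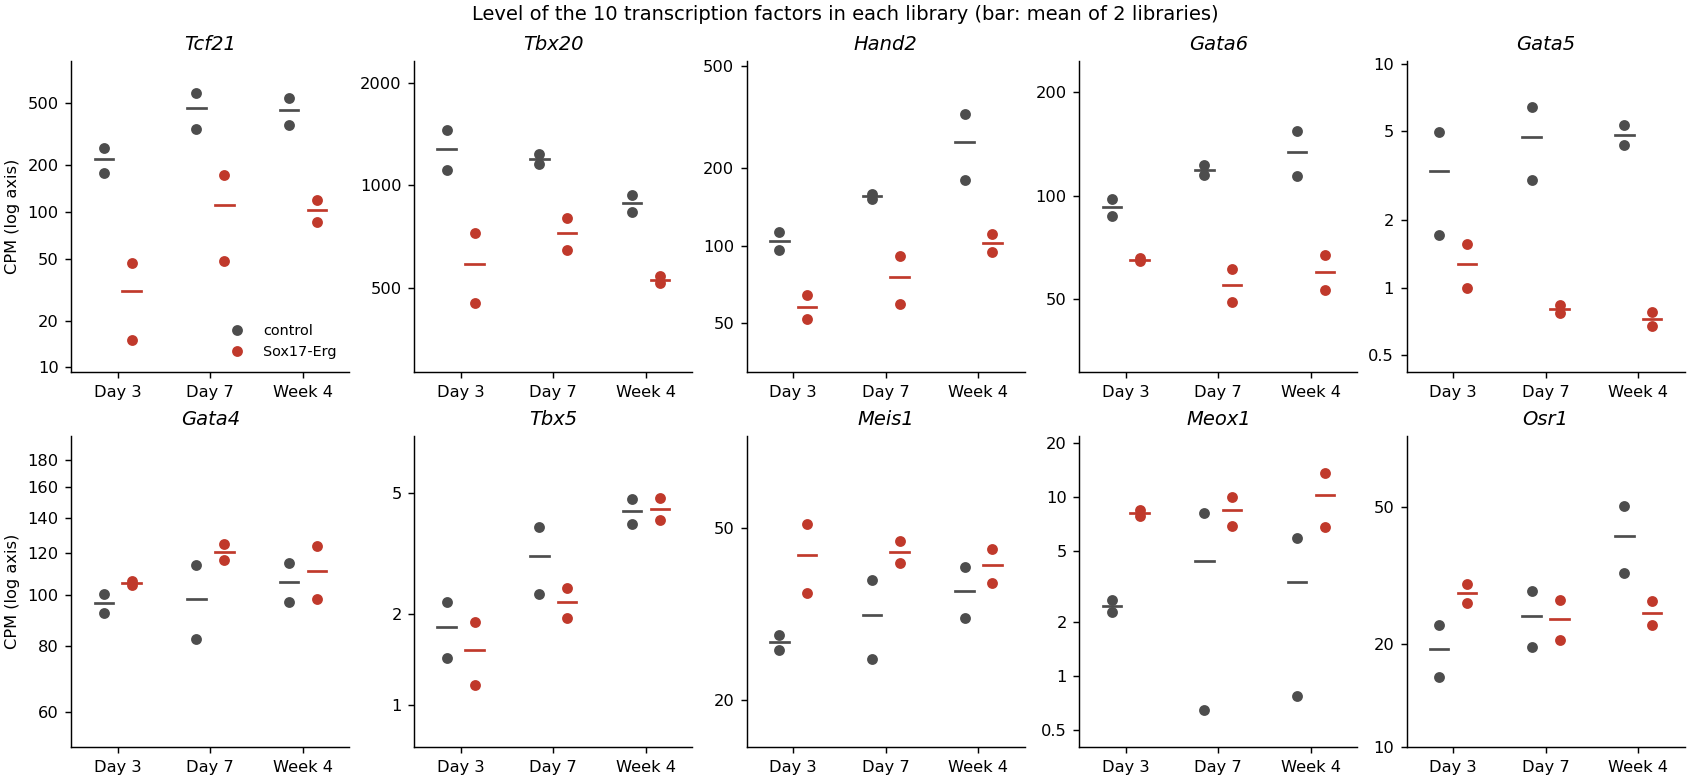
Level of each of the 10 transcription factors, in CPM on a log axis, in every control (grey) and *Sox17*-*Erg* (red) library by time point, with a bar at the mean of 2 libraries. Both *Sox17*-*Erg* libraries lie below both control libraries at all 3 time points for *Tcf21*, *Tbx20*, *Hand2*, *Gata6* and *Gata5*, and the 2 groups overlap at Week 4 for *Gata4*, *Tbx5* and *Meis1*.

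*Tcf21* (ENSMUSG00000045680) lies on the minus strand at chr10:22817281-22820174 (GRCm38). Its promoter is shown because the RefSeq promoter table (GRCm38.p6), which held 5 of the 10 members, gave it a match to the core of ETS binding sites. The 219 bases at chr10:22820175-22820393, minus strand, 5′ to 3′, end where the annotated gene begins, and capitals mark AGGAAG at position -185 from the RefSeq start, on the strand of the gene.
*Tcf21*: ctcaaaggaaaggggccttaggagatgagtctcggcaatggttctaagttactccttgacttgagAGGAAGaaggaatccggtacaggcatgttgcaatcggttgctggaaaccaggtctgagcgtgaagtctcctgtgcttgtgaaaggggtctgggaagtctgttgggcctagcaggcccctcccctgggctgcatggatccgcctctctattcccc
AGGAAG, on either strand, occurred in 29.5% of the 32851 promoters of the table over the 250 bases before the start, so a match is common, and it describes letters and not a bound site. No other member with a promoter in the table held it.

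*Tcf21* was lower in *Sox17*-*Erg* than in control at Day 3 and Week 4 and missed the threshold at Day 7 without a replicate block. With the replicate block within time points the difference at Day 7 passed (-2.29, adjusted p = 0.0062). Its mean level in *Sox17*-*Erg* was 14.2%, 24.0% and 22.7% of control at the 3 time points. In control it stood at 179 and 256 CPM at Day 3, 343 and 582 CPM at Day 7, and 543 and 362 CPM at Week 4. In *Sox17*-*Erg* it stood at 14.98 and 46.6 CPM at Day 3, 48.2 and 174 CPM at Day 7, and 86.6 and 118 CPM at Week 4. The groups did not overlap at any time point, and the highest *Sox17*-*Erg* library of any time lay just below the lowest control library. The log2 fold change was -2.82 ± 0.67 (SE, adjusted p = 0.029) at Day 3, -2.06 ± 0.65 (adjusted p = 0.057) at Day 7 and -2.14 ± 0.65 (adjusted p = 0.043) at Week 4. The replicates of *Tcf21* in *Sox17*-*Erg* were 3.11 and 3.60 times apart at Day 3 and Day 7 and 1.37 times at Week 4, against 1.43 to 1.70 times in control, and its calls were sensitive to single libraries. The call at Day 3 was lost without control Day 3 replicate 1 (adjusted p = 0.084), control Day 3 replicate 2 (0.13) or *Sox17*-*Erg* Day 3 replicate 1 (0.19). The call at Week 4 was lost without either control Day 3 library (adjusted p = 0.061 and 0.064), either control Week 4 library (0.17 and 0.066) or either *Sox17*-*Erg* Week 4 library (0.21 and 0.11). At Day 7 the difference passed the threshold with the Wald test of DESeq2 (-2.07, adjusted p = 0.023). It also passed in edgeR without *Sox17*-*Erg* Day 7 replicate 2, where it was -3.30 (adjusted p = 0.017), and without either *Sox17*-*Erg* Day 3 library (0.040 and 0.043). Without *Sox17*-*Erg* Day 7 replicate 1 it was -1.41 (0.27), and without control Day 7 replicate 2 it was -1.63 (0.23).

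*Tbx20* (ENSMUSG00000031965, chr9:24718138-24774303) encodes a T-box factor required in cardiac development and in adult cardiomyocytes, and it had the most counts of the 10 members. Its level in control was 1114 and 1453 CPM at Day 3, 1157 and 1242 CPM at Day 7, and 833 and 937 CPM at Week 4. Its level in *Sox17*-*Erg* was 452 and 724 CPM at Day 3, 644 and 805 CPM at Day 7, and 542 and 515 CPM at Week 4. All 6 *Sox17*-*Erg* libraries lay below all 6 control libraries. The log2 fold change was -1.13 ± 0.24 (adjusted p = 0.019) at Day 3, -0.73 ± 0.23 (adjusted p = 0.062) at Day 7 and -0.74 ± 0.23 (adjusted p = 0.048) at Week 4. The call at Day 3 was lost without control Day 3 replicate 1 (adjusted p = 0.054), control Day 3 replicate 2 (0.12) or *Sox17*-*Erg* Day 3 replicate 1 (0.13). At Week 4 it stood close to the threshold and was lost in 10 of the 12 fits that left out 1 library, all but those without a *Sox17*-*Erg* Day 3 library, with log2 fold changes between -0.83 and -0.65 and adjusted p up to 0.17. At Day 7 it ran from -0.94 to -0.57 when 1 library was left out, with adjusted p from 0.029 to 0.34. That difference passed with the replicate block (-0.74, adjusted p = 0.0093) and with the Wald test of DESeq2 (-0.74, adjusted p = 0.010).

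*Tbx5* (ENSMUSG00000018263, chr5:119832668-119885219), a T-box factor of the heart and forelimb, was the least abundant member per length in control. It lay at 2.18 and 1.43 CPM in control and 1.87 and 1.16 CPM in *Sox17*-*Erg* at Day 3, and at 3.88 and 2.33 CPM against 2.43 and 1.93 CPM at Day 7. At Week 4 it lay at 4.79 and 3.94 CPM in control and 4.07 and 4.81 CPM in *Sox17*-*Erg*. The groups overlapped at every time point, and the libraries held between 27 and 191 counts of the gene. The differences of -0.26 (95% interval -1.09 to 0.56), -0.51 (-1.29 to 0.28) and 0.02 (-0.74 to 0.78) did not pass the test, and the intervals leave room for a change of more than 2-fold downward at Day 3 and Day 7.

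The GATA factors are zinc finger proteins that bind the same core sequence and act in overlapping ways in heart development. *Gata4* (ENSMUSG00000021944, chr14:63198922-63271692) did not pass the test at any time point. It stood at 92.4 and 100.3 CPM in control and 106 and 104 CPM in *Sox17*-*Erg* at Day 3, at 82.3 and 114 CPM against 125 and 116 CPM at Day 7, and at 115 and 96.9 CPM against 124 and 98.0 CPM at Week 4. Both *Sox17*-*Erg* libraries were slightly above both control libraries at Day 3 and Day 7, and the groups overlapped at Week 4. The log2 fold changes were 0.13 (95% interval -0.26 to 0.51, adjusted p = 0.66), 0.30 (-0.09 to 0.68, adjusted p = 0.27) and 0.07 (-0.32 to 0.45, adjusted p = 0.82), so a drop of the size measured for *Gata6* at Day 7 and Week 4 lies outside all 3 intervals. The difference at Day 7 ran from 0.059 to 0.55 when 1 library was left out.

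*Gata6* (ENSMUSG00000005836, chr18:11052064-11085635) was lower in *Sox17*-*Erg* at Day 7 and Week 4. In control it stood at 97.8 and 86.9 CPM at Day 3, 123 and 115 CPM at Day 7, and 154 and 114 CPM at Week 4. In *Sox17*-*Erg* it stood at 64.3 and 65.8 CPM at Day 3, 49.0 and 60.9 CPM at Day 7, and 67.1 and 52.9 CPM at Week 4. All *Sox17*-*Erg* libraries lay below all control libraries, whatever the time. The log2 fold change was -0.51 ± 0.18 (adjusted p = 0.090) at Day 3, -1.11 ± 0.18 (adjusted p = 0.0034) at Day 7 and -1.16 ± 0.18 (adjusted p = 0.0018) at Week 4. The difference at Day 3 passed as well with the replicate block (-0.50, adjusted p = 0.027). The calls at Day 7 and Week 4 were the only ones among the members that held in every alternative fit run, the stricter adjusted p under 0.01 and the minimum log2 fold change of 1 included.

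*Gata5* (ENSMUSG00000015627, chr2:180325133-180334699), a GATA factor known from the endocardium and epicardium, had the lowest level of the GATA factors and was lower in *Sox17*-*Erg* at Day 7 and Week 4. It lay at 4.95 and 1.71 CPM in control and 1.57 and 0.991 CPM in *Sox17*-*Erg* at Day 3, at 6.41 and 3.01 CPM against 0.772 and 0.835 CPM at Day 7, and at 5.34 and 4.31 CPM against 0.672 and 0.778 CPM at Week 4. The 2 groups did not overlap at any time, but at Day 3 the lower control library lay close to the higher *Sox17*-*Erg* library. The *Sox17*-*Erg* values rest on few reads, 19 to 31 counts per library, against 37 to 213 in control. The log2 fold change was -1.39 ± 0.53 (adjusted p = 0.12) at Day 3, -2.55 ± 0.54 (adjusted p = 0.013) at Day 7 and -2.73 ± 0.55 (adjusted p = 0.0073) at Week 4. At Day 3 the difference was -0.42 (adjusted p = 0.67) without control Day 3 replicate 1 and -1.99 (0.072) without control Day 3 replicate 2. The call at Day 7 was lost without control Day 7 replicate 1 (-1.93, adjusted p = 0.061) or *Sox17*-*Erg* Day 7 replicate 1 (-2.49, 0.11), and the call at Week 4 without *Sox17*-*Erg* Week 4 replicate 1 (-2.63, 0.065).

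The makeup of the GATA factors was apart between the groups. Expressed per kilobase of merged exons, *Gata4* made up between 50.3% and 64.9% of the summed level of *Gata4*, *Gata5* and *Gata6* in the control libraries and between 72.0% and 80.5% in the *Sox17*-*Erg* libraries. *Gata6* made up between 33.7% and 45.0% in control and between 18.9% and 27.2% in *Sox17*-*Erg*, and *Gata5* between 1.32% and 4.67% against 0.485% and 1.27%. The shares of each gene did not overlap between the groups over the 12 libraries. They are parts of 1 sum and so not separate results, and the level of *Gata4* itself did not pass the test. How often the shares of other genes are apart in this way was not tested. The summed level of the GATA factors overlapped, between 39.6 and 54.7 CPM per kb in control and between 33.5 and 42.3 CPM per kb in *Sox17*-*Erg*. With the longest transcript as the length, the *Gata4* share was lower in both groups, between 41.3% and 55.7% in control and between 63.4% and 73.6% in *Sox17*-*Erg*, and the groups again did not overlap. The *Gata6* share was then between 43.3% and 55.4% in control and between 25.9% and 35.9% in *Sox17*-*Erg*. It exceeded the *Gata4* share in control Day 7 replicate 1 and in both control Week 4 libraries.

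**Figure D2:**
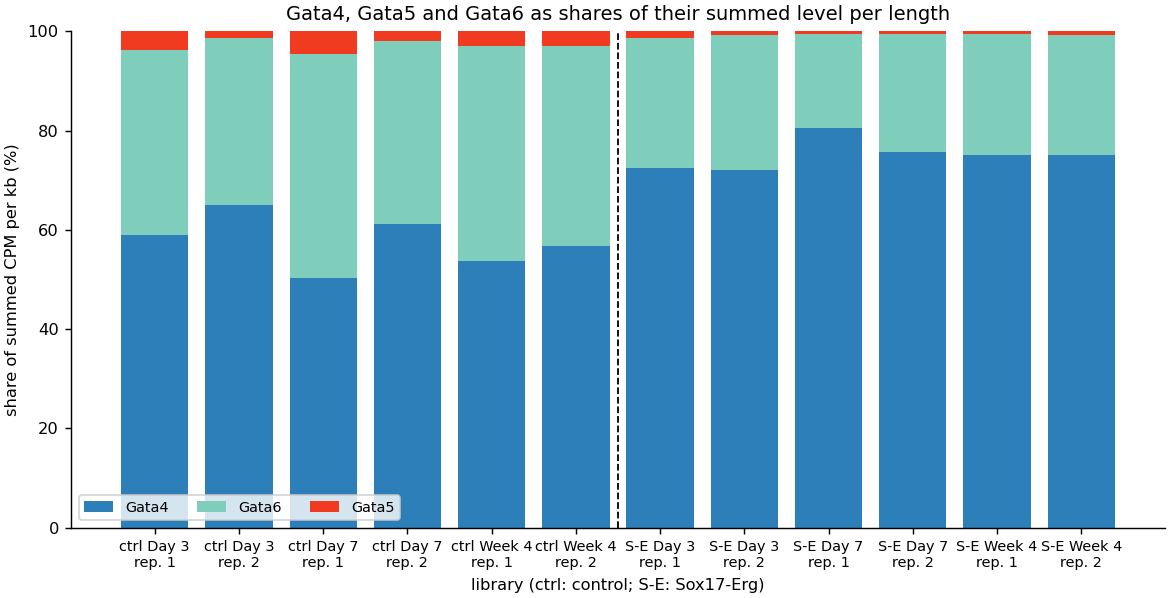
Stacked bars give the share of *Gata4* (blue), *Gata6* (green) and *Gata5* (red), in percent of their summed CPM per kb of merged exons, in each of the 12 libraries, with control left and *Sox17*-*Erg* right of the dashed line. The *Gata4* share is at most 64.9% in control and at least 72.0% in *Sox17*-*Erg*.

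*Hand2* (ENSMUSG00000038193, chr8:57320983-57324633) encodes a basic helix-loop-helix factor of the developing heart, including the epicardium. It stood at 96.3 and 113 CPM in control and 51.9 and 64.3 CPM in *Sox17*-*Erg* at Day 3, at 152 and 159 CPM against 59.7 and 91.7 CPM at Day 7, and at 326 and 181 CPM against 111 and 94.4 CPM at Week 4. The groups did not overlap at any time point. As log2 fold change the difference was -0.85 ± 0.28 (adjusted p = 0.080) at Day 3, -1.04 ± 0.28 (adjusted p = 0.034) at Day 7 and -1.30 ± 0.28 (adjusted p = 0.010) at Week 4. At Day 3 the fit with the replicate block called it lower (-0.85, adjusted p = 0.018), as did the Wald test of DESeq2 (-0.87, adjusted p = 0.021), and so did edgeR without either control Week 4 library (0.041 and 0.038). Control Week 4 replicate 1 was the highest library for *Hand2*, and without it the difference at Week 4 was -0.82 (adjusted p = 0.069), and without *Sox17*-*Erg* Week 4 replicate 2 it was -1.22 (0.064). The call at Day 7 was lost without either control Day 3 library (adjusted p = 0.052 and 0.051), either control Day 7 library (0.075 and 0.12) or *Sox17*-*Erg* Day 7 replicate 1 (-0.76, 0.24), and in the fit of Day 7 alone (-1.06, 0.063).

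*Meis1* (ENSMUSG00000020160, chr11:18879817-19018985), a homeodomain factor that restrains cell division in cardiomyocytes and pairs with PBX proteins, is shown with its promoter because it was the only member of the table with a match to a core of SOX binding sites. The 234 bases at chr11:19018986-19019219, minus strand, 5′ to 3′, end where the annotated gene begins, and capitals mark ACAATG, read on the opposite strand, at position -48 from the RefSeq start.
*Meis1*: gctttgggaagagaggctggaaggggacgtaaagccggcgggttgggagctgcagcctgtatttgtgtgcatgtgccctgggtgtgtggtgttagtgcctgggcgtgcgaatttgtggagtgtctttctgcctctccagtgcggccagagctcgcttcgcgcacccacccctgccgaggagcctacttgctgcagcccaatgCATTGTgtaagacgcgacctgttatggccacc
ACAATG, on either strand, occurred in 10.7% of all promoters in the table. A match to the ETS core CGGAAG on the opposite strand at position -12 lies past the end of the printed bases, within the annotated gene, and CGGAAG occurred in 13.6% of promoters. The remaining members with a promoter in the table, *Tbx20*, *Gata5* and *Hand2*, held none of these 3 cores on either strand in this window. No member there held the SOX core ACAAAG, found in 16.5% of promoters, or the GATA core GATAAG, found in 6.55%.

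*Meis1* stood at 26.1 and 28.3 CPM in control and 51.1 and 35.4 CPM in *Sox17*-*Erg* at Day 3, at 24.9 and 37.9 CPM against 46.8 and 41.5 CPM at Day 7, and at 40.7 and 31.0 CPM against 44.7 and 37.3 CPM at Week 4. The groups were apart at Day 3 and Day 7 and overlapped at Week 4. On the log2 scale the difference was 0.67 ± 0.24 (adjusted p = 0.099) at Day 3, 0.49 ± 0.24 (0.19) at Day 7 and 0.19 ± 0.24 (0.61) at Week 4, none past the threshold. When 1 library was left out, these ran from 0.34 to 0.91, from 0.20 to 0.83 and from 0.022 to 0.40, with no adjusted p under 0.067.

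*Meox1* (ENSMUSG00000001493, chr11:101877510-101894374), the homeodomain factor of activated fibroblasts, had the least reproducible values of the members. In control it lay at 2.66 and 2.27 CPM at Day 3, 8.10 and 0.643 CPM at Day 7, and 0.777 and 5.90 CPM at Week 4. In *Sox17*-*Erg* it lay at 8.50 and 7.80 CPM at Day 3, 9.95 and 6.90 CPM at Day 7, and 6.76 and 13.7 CPM at Week 4. The groups were apart at Day 3 and Week 4 and overlapped at Day 7, where control Day 7 replicate 1 was above a *Sox17*-*Erg* library. The log2 fold changes of 1.72 ± 1.04, 0.95 ± 0.99 and 1.65 ± 1.01 did not pass the test (adjusted p = 0.30, 0.55 and 0.28). When 1 library was left out, the difference ran from 1.58 to 1.84 at Day 3. It ran at Day 7 from 0.060, without control Day 7 replicate 2, to 3.68, without control Day 7 replicate 1, and at Week 4 from 0.79, without control Week 4 replicate 1, to 3.71, without control Week 4 replicate 2, with no adjusted p under 0.073. Fitted on the 4 libraries of Day 3 alone, where the replicates lay close together, the difference of 1.69 passed (adjusted p = 0.019).

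*Osr1* (ENSMUSG00000048387, chr12:9570116-9581500) encodes a zinc finger factor of early mesoderm and connective tissue progenitors. It stood at 22.6 and 16.0 CPM in control and 29.8 and 26.3 CPM in *Sox17*-*Erg* at Day 3, at 28.5 and 19.5 CPM against 20.5 and 26.8 CPM at Day 7, and at 50.5 and 32.2 CPM against 26.5 and 22.7 CPM at Week 4. Both *Sox17*-*Erg* libraries lay above both control libraries at Day 3 and below them at Week 4, with overlap at Day 7. The log2 fold change was 0.54 ± 0.27 (adjusted p = 0.22), -0.02 ± 0.27 (0.97) and -0.75 ± 0.27 (0.078) at the 3 time points. At Week 4 the difference passed with the replicate block (-0.72, adjusted p = 0.048). Without control Week 4 replicate 2 the difference at Week 4 was -1.03 and passed the threshold (adjusted p = 0.043), and without control Week 4 replicate 1 it was -0.39 (0.45). At Day 3 it ran from 0.27 to 0.81 when 1 library was left out.

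**Figure D3:**
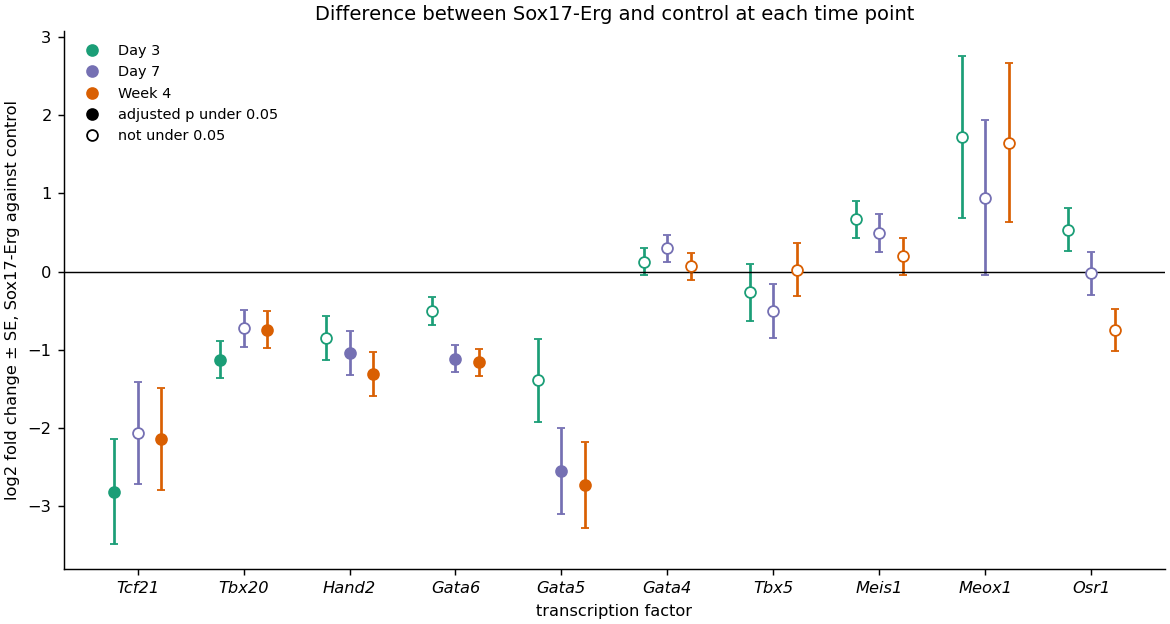
Difference of *Sox17*-*Erg* from control, as log2 fold change, for each factor at Day 3 (green), Day 7 (purple) and Week 4 (orange), with bars of 1 SE from edgeR and filled points for an adjusted p under 0.05 without a replicate block. Filled points lie below 0 for *Tcf21*, *Tbx20*, *Hand2*, *Gata6* and *Gata5*, and *Gata4*, *Tbx5*, *Meis1*, *Meox1* and *Osr1* have open points.

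Over the 3 time points together, an exact two-sided permutation test that exchanged libraries within each time point, with a smallest possible p of 0.0093, gave that smallest p for *Tcf21*, *Tbx20*, *Gata5*, *Gata6* and *Hand2*, as it did for 28.3% of all genes. The mean differences of these 5 genes, on the log2 CPM scale with a prior count of 2, were -2.48, -0.88, -2.05, -0.93 and -1.06, and each was lower in *Sox17*-*Erg* at 3 of 3 time points. In the same exact test the mean differences of *Meis1* (0.45, p = 0.019) and *Meox1* (1.86, p = 0.028) lay above 0. The p-values were 0.12 for *Gata4* (0.17), 0.29 for *Tbx5* (-0.23) and 0.81 for *Osr1* (-0.055) in this exact test. Where the exchange was kept within same-numbered pairs of each time point, a test added after the values were seen, the smallest possible exact two-sided p was 0.031. It was reached by *Tcf21*, *Tbx20*, *Gata5*, *Gata6* and *Hand2*, lower in *Sox17*-*Erg* in 6 of 6 pairs, and by *Gata4*, *Meis1* and *Meox1*, higher in 6 of 6 pairs. In this paired exact test *Tbx5*, lower in 5 of 6 pairs, had a p of 0.16 and *Osr1*, lower in 3 of 6, a p of 0.81. The p-values of both tests are not adjusted for the 10 genes. Under 0.05 were 7 of the 10 members in the first test, against 47.2% of all genes (47.1% with a prior count of 0.5), and 8 in the paired test, against 40.6%. Within a single time point, 2 libraries against 2 cannot go below an exact two-sided p of 0.33.

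In non-overlap between the 2 libraries of each group, 5 members were lower and 4 higher in *Sox17*-*Erg* at Day 3, where 29.9% and 34.1% of all genes were apart in these directions. At Day 7 the counts were 5 lower and 2 higher (28.8% and 29.0% of all genes), and at Week 4 they were 6 lower and 1 higher (32.4% and 30.3%). *Tcf21*, *Tbx20*, *Gata5* and *Gata6* were apart over all 12 libraries, and how many of all genes were so was not counted.

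The levels were also compared over time in culture. From Day 3 to Week 4, 4 of the 10 were higher within control, where 13.9% of all genes were, and 1 within *Sox17*-*Erg*, where 15.1% were. Within control these were *Hand2* (log2 difference 1.27 ± 0.28, adjusted p = 0.011), *Osr1* (1.10 ± 0.27, 0.018), *Tbx5* (1.26 ± 0.35, 0.028) and *Gata6* (0.54 ± 0.17, 0.048). Within *Sox17*-*Erg* it was *Tbx5* (1.55 ± 0.36, 0.012), while *Osr1* (-0.19 ± 0.27, 0.64) and *Gata6* (-0.12 ± 0.18, 0.66) did not pass. *Hand2* within *Sox17*-*Erg* was at 0.82 ± 0.28 (adjusted p = 0.054), just short of the threshold, which it passed with DESeq2 (0.86, 0.014) and in 4 of the 12 fits that left out 1 library (lowest adjusted p = 0.019). No member was called lower with time in either group by edgeR, against 12.6% and 15.6% of all genes, or by DESeq2, and *Tbx20* in control, at -0.54 (adjusted p = 0.12), was the only 1 lower at an unadjusted p under 0.05, against 19% of all genes in control and 21.4% in *Sox17*-*Erg*. Without control Week 4 replicate 1, which was the highest library for *Hand2* and *Osr1*, the control differences were 0.79 (adjusted p = 0.077) for *Hand2*, 0.74 (0.13) for *Osr1* and 0.31 (0.32) for *Gata6*. The control calls of *Tbx5* were lost without any of the 4 control libraries of Day 3 and Week 4 (adjusted p between 0.051 and 0.17). Those of *Hand2* were lost without either control Day 3 library as well (0.085 and 0.052), and that of *Osr1* without control Day 3 replicate 2 (0.13). That of *Gata6* was lost without either control Day 3 library (0.12 and 0.24), either control Day 7 library (0.056 and 0.060) or either *Sox17*-*Erg* Day 3 library (0.065 and 0.069). The *Tbx5* call within *Sox17*-*Erg* was lost without *Sox17*-*Erg* Day 3 replicate 2 (0.079) or Week 4 replicate 2 (0.056).

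*Tcf21* had a mean of 30.8 ± 22.4 CPM at Day 3 and 103 ± 22.5 CPM at Week 4 in the *Sox17*-*Erg* libraries (SD, n = 2), a log2 difference of 1.73 ± 0.65 that did not pass the test (adjusted p = 0.072) and passed with DESeq2 (1.77, 0.045). The same step in control, from 217 ± 54.1 to 452 ± 128 CPM, was 1.06 ± 0.63 (adjusted p = 0.25). It also passed in *Sox17*-*Erg* without *Sox17*-*Erg* Day 3 replicate 2 (2.78, 0.042) or either *Sox17*-*Erg* Day 7 library (0.034 and 0.029).

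Whether the effect of *Sox17*-*Erg* differed between Week 4 and Day 3 was tested as an interaction. Of the 10 members 0 passed the interaction test, where 3.21% of all genes did, 2 were lower and 0 higher at an unadjusted p under 0.05, against 16.9% of all genes in either direction, and DESeq2 called 1, *Osr1*, against 6.53% of the genes it tested. The interaction was -1.29 ± 0.38 (95% interval -2.15 to -0.42, adjusted p = 0.12) for *Osr1* in edgeR and -1.26 (adjusted p = 0.044) in DESeq2. It was -0.66 ± 0.25 (-1.21 to -0.10, 0.21) for *Gata6*, -1.34 ± 0.75 (-3.03 to 0.36, 0.42) for *Gata5* and 0.67 ± 0.89 (-1.33 to 2.68, 0.78) for *Tcf21*. The larger differences of *Gata5* and *Gata6* at Week 4 than at Day 3 thus did not pass a test of that change. Between the other pairs of time points 0 members passed as well, where 0.0838% of all genes did from Day 3 to Day 7 and 0.0387% from Day 7 to Week 4, and DESeq2 called 0 in both. At an unadjusted p under 0.05, 1 member differed, downward, from Day 3 to Day 7 and 0 from Day 7 to Week 4, against 8.91% and 6.47% of all genes.

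Per kilobase of merged exons, which allows levels of different genes to be compared, *Tbx20* (107 CPM per kb) and *Tcf21* (92.5) led the members in control at Day 3, followed by *Hand2* (44.6), *Gata4* (24.7), *Gata6* (14.2) and *Osr1* (9.34). *Tbx20* and *Tcf21* overlapped between libraries there, and each later gene of these was below the gene before it in both libraries. *Meis1* (2.59), *Meox1* (1.10), *Gata5* (1.02) and *Tbx5* (0.387) were far lower, and *Meox1* and *Gata5* overlapped. At Day 7 and Week 4 *Tcf21* led the control cultures, with 197 and 192 CPM per kb, and lay above the next gene in both libraries. In *Sox17*-*Erg* at Day 3 *Tcf21* (13.1) was the fifth gene in this order, behind *Tbx20* (49.0), *Gata4* (27.0), *Hand2* (24.7) and *Osr1* (13.6), with libraries that overlapped those of *Osr1* and *Gata6* (9.99). This place depended on the length. With the longest transcript, the mean of *Tcf21* (17.23) lay above that of *Osr1* (13.9) and level with that of *Gata6* (17.19). At Week 4 *Tbx20* (44.0), *Tcf21* (43.6) and *Hand2* (43.6) were level and overlapped in *Sox17*-*Erg*, and *Gata5* (0.221) was the lowest member. With the longest transcript, *Hand2* (43.6) lay below *Tbx20* (58.1) and *Tcf21* (57.3) there, without overlap between libraries.

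Close relatives of the members were mostly weakly expressed. Of 16 paralogs, 12 were detected well enough to be tested, and 2 were higher in *Sox17*-*Erg* at Day 3, 3 at Day 7 and 3 at Week 4, where 1 was lower. None was lower at Day 3 or Day 7 in edgeR, with 1 at each time at an unadjusted p under 0.05 and 1 at each in DESeq2. In the fit with the replicate block 3, 4 and 4 paralogs were higher and 1, 2 and 2 lower. Among all genes, edgeR called 7.19%, 9.48% and 11.9% higher in time order, and 5.13%, 7.93% and 11.0% lower. With the block these shares were 12.7%, 13.8% and 15.5% higher, and 10.4%, 13.3% and 15.5% lower. These shares, and those given above for DESeq2 and the unadjusted threshold, also apply to the partner and marker lists below. The lists were not tested against them. The median log2 fold change of the paralogs was 0.16, 0.10 and 0.49. At Day 3 *Msc*, a basic helix-loop-helix relative of *Tcf21*, rose by 2.51 ± 0.56 (adjusted p = 0.023), from at most 0.740 CPM in control to 3.19 and 4.14 CPM, and *Meox2*, the relative of *Meox1*, rose by 2.30 ± 0.52 (0.024), from at most 0.971 to 2.94 and 3.36 CPM. At Week 4 *Meox2* was lower, by -1.64 ± 0.52 (adjusted p = 0.049). *Tbx3*, a T-box repressor, was higher at Day 7 (1.68 ± 0.30, 0.0058) and Week 4 (2.14 ± 0.30, 0.0012), and *Tbx15* rose at Week 4 by 4.96 ± 0.62 (adjusted p = 0.00067), from at most 0.576 CPM to 11.5 and 16.4 CPM. *Tbx1*, *Gata1*, *Osr2* and *Tcf15* were not tested for want of counts.

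Binding partners and cardiac co-factors of the members, a list of 19 genes that were all tested, held 2 higher genes at Day 3, 4 at Day 7 and 5 at Week 4. The lower genes numbered 0 at Day 3 in edgeR, with 1 at an unadjusted p under 0.05 and 1 in DESeq2, and 1 at Day 7 and at Week 4. With the replicate block 3 partners were higher and 1, *Zfpm2*, was lower at Day 3 (adjusted p = 0.012). Their median log2 fold change was 0.08, 0.14 and 0.28. *Tcf3* and *Tcf4*, which encode 2 of the E proteins with which TCF21 and HAND2 form dimers, were higher at every time point. Values of other E proteins are not given here. *Tcf4* stood between 134 and 177 CPM in control and between 241 and 268 CPM in *Sox17*-*Erg* at Day 3 (0.71 ± 0.18, adjusted p = 0.036), and was higher by 1.34 ± 0.18 (0.0011) at Week 4, and *Tcf3* was higher by 0.72 ± 0.12 (0.0090) and 1.12 ± 0.12 (0.00033). *Zfpm2*, which encodes the GATA co-factor FOG2, was lower at Day 7 (-0.70 ± 0.20, 0.039) and Week 4 (-1.02 ± 0.20, 0.0059), where it fell from 53.1 and 53.5 CPM to between 24.1 and 28.3 CPM. *Pknox2*, a relative of MEIS factors, was higher at Day 7 (1.09 ± 0.25, 0.016). *Nkx2-5* and *Isl1*, cardiac progenitor factors, stayed at or below 1.88 CPM in every library and did not pass at Day 3 or Week 4.

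Markers of other cell types moved between the groups as well. Of 12 cardiomyocyte markers 2 were lower at Day 3, 4 at Day 7 and 8 at Week 4, and none was higher at these time points in edgeR, in DESeq2 or at an unadjusted p under 0.05. The counts of lower markers were 5, 8 and 10 with the replicate block. Their summed level lay between 652 and 1544 CPM in control and between 339 and 690 CPM in *Sox17*-*Erg*, most of it from *Tnnt2*, and *Myl7*, a defining marker, lay between 6.55 and 8.14 CPM in control and between 0.389 and 0.778 CPM in *Sox17*-*Erg* at Week 4 (-3.65 ± 0.80, adjusted p = 0.011). Of 8 epicardial and mesothelial markers 1 was lower at Day 3, 6 at Day 7 and 8 at Week 4, or 7, 8 and 8 with the replicate block, and their summed level lay between 324 and 1487 CPM in control and between 145 and 328 CPM in *Sox17*-*Erg*, with *Krt19* at 0.142 CPM or less in *Sox17*-*Erg* at Week 4 (-2.92 ± 0.72, 0.018). Several members, among them *Tbx20*, *Gata4*, *Gata6* and *Hand2*, are known in cardiomyocytes or the epicardium as well, and *Tcf21* in the epicardium. The part of these cells in the lower values of the members was not tested.

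The fibroblast markers themselves split. Of the 12, edgeR called 0 at Day 3, where 1 was higher and 4 were lower at an unadjusted p under 0.05 and in DESeq2, and called 3 higher and 3 lower at Day 7 and 4 higher and 3 lower at Week 4. The counts became 1, 5 and 4 higher and 5, 4 and 4 lower with the replicate block. *Lum* (-3.39 ± 0.73, adjusted p = 0.0099), *Dcn* (-3.31 ± 0.58, 0.0036) and *Pdgfra*, with 1609 and 1657 CPM in control and 330 and 335 CPM in *Sox17*-*Erg* (-2.30 ± 0.56, 0.018), were lower at Week 4. *Postn*, which marks activated fibroblasts and stood at 47.5 and 60.4 CPM in control at Week 4, was higher (4.74 ± 0.30, 1.9e-05), as was *Mfap5* (1.59 ± 0.22, 0.0011). *Thy1*, the marker used for isolation, lay between 375 and 428 CPM in control and between 166 and 289 CPM in *Sox17*-*Erg* at Day 3, with the groups apart (-0.82 ± 0.25, adjusted p = 0.065, and 0.023 with the replicate block). At Day 7 the groups overlapped (-0.16, adjusted p = 0.70), and *Thy1* stood at 133 and 163 CPM in control and 122 and 132 CPM in *Sox17*-*Erg* at Week 4 (-0.22, adjusted p = 0.57).

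Of the remaining lists, 4, 5 and 7 of 11 tested endothelial markers were higher at the 3 time points and 1, *Eng*, was lower at Week 4, with *Cdh5* at 0.569 CPM or less in control and 394 to 496 CPM in *Sox17*-*Erg* at Week 4 (10.17 ± 1.67, adjusted p = 0.0027). Of 4 tested endocardial markers 1 was lower at each time point, *Nfatc1* at Day 3 (-0.85 ± 0.14, 0.0083), *Cgnl1* at Day 7 (-1.93 ± 0.26, 0.0017) and *Npr3* at Week 4 (-1.71 ± 0.40, 0.015). With the replicate block 2 endocardial markers were lower at Day 7 and 2 at Week 4, and 4, 5 and 8 endothelial markers were higher and 1, 1 and 2 lower. Of 10 smooth muscle and pericyte markers 2, 6 and 5 were higher, and 2 were lower at Week 4, while with the replicate block 3, 7 and 7 were higher and 1 was lower at Day 3 and 1 at Week 4, with *Notch3* higher by 3.17 ± 0.27 (9.3e-05) at Week 4. None of 10 macrophage markers was called at any of the 3 time points in edgeR, in DESeq2 or at an unadjusted p under 0.05. With the replicate block, 10 of the 10 were lower at Day 7, where their summed level was 915 and 1316 CPM in control and 282 and 455 CPM in *Sox17*-*Erg*, and 1 was higher at Week 4. Over all libraries their summed level ran from 47.8 to 1316 CPM in control and from 69.7 to 455 CPM in *Sox17*-*Erg*. Of 10 cell cycle genes 5 were higher at Week 4 and 0 earlier in edgeR, where 6 at Day 3 were higher at an unadjusted p under 0.05 and 2 in DESeq2, and 7, 4 and 7 were higher with the replicate block, with *Mki67* higher by 2.25 ± 0.66 (0.036) at Week 4, and the summed level of the list lay between 452 and 571 CPM in control and between 1183 and 1437 CPM in *Sox17*-*Erg* at Day 3. The part of these shifts in the values of the members was not tested.

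**Figure D4:**
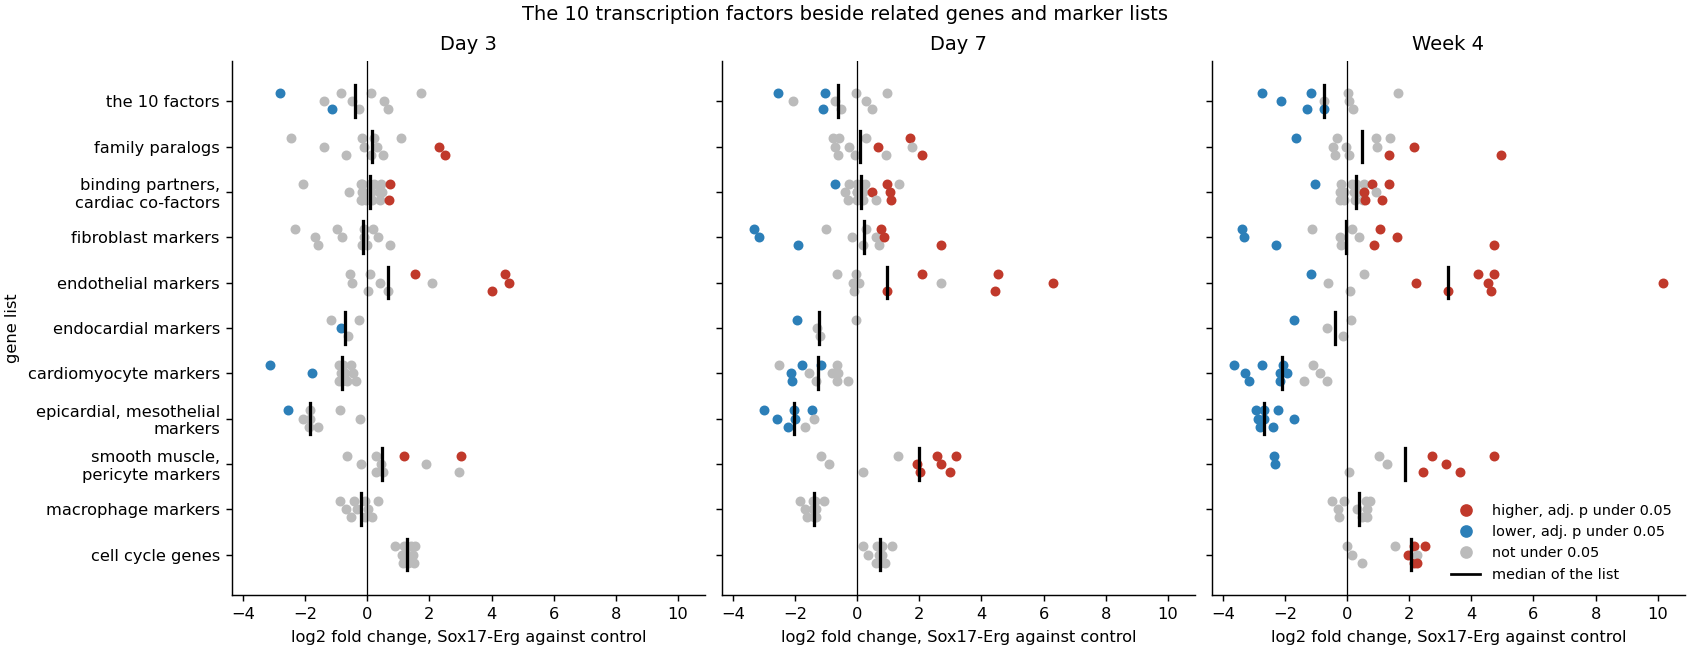
Log2 fold change of *Sox17*-*Erg* against control for every tested gene of the 10 factors, their paralogs and partners, and the marker lists by time point, with red and blue points higher and lower at an adjusted p under 0.05 and a black bar at the median of each list. At Week 4 the median is -0.75 for the 10 factors, -2.67 for epicardial and mesothelial markers and -2.10 for cardiomyocyte markers.

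Over the 12 libraries, where the points share their treatment and time groups and are therefore not independent, the patterns of several members ran together on the log2 CPM scale. Pearson's r was 0.92 between *Gata5* and *Gata6*, 0.89 between *Tcf21* and *Hand2*, 0.86 between *Gata6* and *Hand2* and 0.83 between *Gata4* and *Meis1*. The lowest value was -0.77, between *Tbx20* and *Meis1*. Among all genes tested, the pattern most like that of *Tcf21* was that of *G0s2* (r = 0.996), followed by *Limd1* (0.989) and *Htra3* (0.988). For *Gata5* these were *Crb2* (0.981), *Bnc1* (0.980) and *Cxadr* (0.978), of which *Bnc1* is on the list of epicardial and mesothelial markers, and for *Gata6* the nearest gene was *Lrrn4cl* (0.977). The nearest genes were *Tsc22d4* (0.977) for *Tbx20*, *Tspan5* (0.977) for *Tbx5*, *Aff1* (0.980) for *Hand2*, *Zfp367* (0.951) for *Meox1* and *Apbb1ip* (0.939) for *Osr1*. *Kmt2b* was nearest for both *Meis1* (0.951) and *Gata4* (0.893).

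Several members share positions with antisense or other genes in the annotation: *Gata5os* shares 258 bases of exons with *Gata5*, *1010001N08Rik* 93 with *Gata6*, *Hand2os1* 461 with *Hand2* and *Gm16140* 896 with *Meis1*, on the opposite strand. *Gm37818* shares 1029 bases with *Meis1* on the same strand, where a stranded library cannot separate the reads of the 2 genes. These genes were not analysed here. The libraries were made with a stranded kit, and the strand setting of the counting is not given in the sources used here, so reads of such pairs cannot be told apart with certainty.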

How the data were processed

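Bulk RNAseq was made from control and *Sox17*-*Erg* cultures at 3 time points. The authors used BBDuk to trim high GC content and Salmon to quantify transcripts, whose version and annotation are not given in the sources used here, and deposited whole-number counts per Ensembl gene, with no scaling for library size. The submitters' processing notes name bcl2fastq 2.20.0 and the build mm10. Of 35727 genes, 35493 matched GENCODE M21 (GRCm38), which gave symbols, positions and lengths.

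The deposited counts entered edgeR 4.0.16 (R 4.3.3) with TMM factors between 0.953 and 1.081, filterByExpr (minimum count 10, minimum total 15), and a quasi-likelihood model of 6 groups with 6 residual degrees of freedom. Standard errors came from the F statistic, and 95% intervals from the t distribution with the fitted degrees of freedom. The threshold was an adjusted p (Benjamini-Hochberg) under 0.05. Correlations and the permutation test used log2 CPM with a prior count of 2. The fit was tested on simulated data. The labels number the replicates without saying what they share. Same-numbered control and *Sox17*-*Erg* libraries deviated together at each time point (r = 0.19, 0.30 and 0.17 across genes), so a fit with the replicate number as a block within each time point is given beside each member's result and list count where it changed the call or, for list counts, the number called.

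Also run were DESeq2 1.42.0 (Wald test), its size factors, other filters and thresholds, fits of single time points, the block over all libraries, a GC offset, a prior count of 0.5, the longest transcript as length, and leaving out each library. All 10 members are named. Of other lists up to 2 genes per direction and comparison with the largest change among those called are named, plus defining genes near 0, and further genes were chosen after their values were seen. Members and lists were chosen with earlier results of these data known. Replicate totals cover counting depth only, and 2 libraries per group make each spread imprecise.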

Additional observations from a re-analysis of the deposited data

Results flagged for a closer look

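*Osr1* lay on opposite sides of control at the ends of the time course, with both *Sox17*-*Erg* libraries above both control libraries at Day 3 (log2 fold change 0.54) and both below at Week 4 (-0.75). The test of the difference between these effects gave -1.29 ± 0.38 in edgeR, with an adjusted p of 0.12 and an unadjusted p of 0.0083. In DESeq2 it gave -1.26 with an adjusted p of 0.044. Without a filter on low counts, edgeR gave -1.30 (adjusted p = 0.0024). Leaving out 1 library at a time kept the difference between -1.56 and -0.92. No group held 4 or more libraries, so single libraries could not be tested as outliers.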

How the results depend on the processing

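The share of all genes called in the same direction follows each count of members in parentheses. Shifts of 1 member, up or down, from counts of 2 to 5 also occurred and are left out. The 2 members lower at Day 3 (5.13%) became 5 without a filter on low counts (5.19%), 4 in fits of single time points (6.88%), 4 with the replicate block within each time point (10.4%) and 0 at an adjusted p under 0.01 (0.755%). The 3 lower at Day 7 (7.93%) became 5 with DESeq2 (10.2%), with no filter (6.73%), with the stricter filter (10.9%), with the replicate block over all libraries (9.42%) or within time points (13.3%) and with the GC offset and replicate block together (9.57%), and 1 at an adjusted p under 0.01 (2.64%). The 5 lower at Week 4 (11.0%) became 2 at an adjusted p under 0.01 (4.79%). The 0 higher became 2 at Day 3 without a filter (5.91%) and 1 in the single time point fit (8.8%), and 1 at Week 4 without a filter (7.98%). The 0 members with a different effect at Week 4 and Day 3 (3.21% in either direction) became 1 with DESeq2 (6.53%) and 1 without a filter (4.59%). The 4 higher with time in control (13.9%) became 0 at an adjusted p under 0.01 (6.11%). The 1 higher with time in *Sox17*-*Erg* (15.1%) became 3 with DESeq2 (16.4%), 2 with its size factors in edgeR (16.1%), 3 without a filter (9.96%), 2 with the stricter filter (19.3%), 2 with the replicate block (16.0%), 2 with the GC offset (16.5%), 2 with the GC offset and replicate block (17.5%), and 0 at an adjusted p under 0.01 (7.25%). The cause of these shifts was not tested. The 7 members under 0.05 in the permutation test (47.2% of all genes in either direction) were 7 with a prior count of 0.5 (47.1%) and 8 with exchange within same-numbered pairs (40.6%).

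Leaving out 1 library at a time left 0 to 3 (Day 3), 1 to 5 (Day 7) and 2 to 5 (Week 4) members lower, while the share of all genes lower ran from 0.41% to 6.19%, from 1.84% to 7.99% and from 4.01% to 10.6%. It left 0 to 0 members higher or with a different effect, 0 to 4 higher with time in control (5.64% to 14.1%) and 0 to 3 in *Sox17*-*Erg* (7.69% to 16.4%). No member that was called changed sign in these fits. Signs of uncalled differences between the groups, and between Week 4 and Day 3, changed for *Tbx5* (-0.68 to 0.076 at Day 3, -0.13 to 0.17 at Week 4, effect between them -0.053 to 0.71), *Gata4* (-0.12 to 0.20 at Week 4, effect -0.21 to 0.086, within *Sox17*-*Erg* -0.057 to 0.24), *Osr1* (-0.27 to 0.25 at Day 7), *Hand2* (effect -0.77 to 0.031), *Meox1* (effect -0.93 to 2.03, within control -1.65 to 1.26, within *Sox17*-*Erg* -0.27 to 0.79), *Gata5* (within control -0.050 to 1.497), and, within *Sox17*-*Erg*, *Tbx20* (-0.40 to 0.23), *Gata6* (-0.25 to 0.045) and *Meis1* (-0.31 to 0.27). The effect of *Tcf21* ran from -0.44 to 1.799 between Day 3 and Day 7 and from -0.73 to 1.16 between Day 7 and Week 4, and the effects of 6 and 7 of the 10 members, *Tcf21* included, changed sign over these pairs of time points. The *Osr1* difference at Day 7 became 0.017 with the replicate block and 0.043 with the GC offset and replicate block, and the *Meox1* effect 0.32 with the block within time points.

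With the replicate block within each time point, calls changed for *Tcf21* and *Tbx20* at Day 7, *Gata6* and *Hand2* at Day 3 and *Osr1* at Week 4, and no other call of a member between *Sox17*-*Erg* and control, or of its effect between time points, was different. The block over all libraries rests on numbers shared between time points, where same-numbered libraries deviated with r between -0.11 and 0.22, and it also called *Tcf21* higher with time within *Sox17*-*Erg* (1.87, adjusted p = 0.025). Depth limits *Gata5*, *Tbx5* and *Meox1* most, with 16 to 369 counts per library.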
